A study of Mus musculus with 12 samples.

Results

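Most proteins of the mitochondrion are made in the cytosol and carried in by a dedicated machinery, and the genes of that machinery were followed here in B lymphocytes with and without a Myc transgene and with and without the enzyme PRPS2. The set comprised every listed symbol that starts with Timm or Tomm and a digit, together with Timmdc1, Samm50, Mtx1, Mtx2, Pmpca, Pmpcb, Dnajc19, Grpel1, Grpel2, Hspa9, Hspd1, Hspe1, Trap1 and Clpp. It held 40 of the 24982 genes listed, and 37 of the 40 passed the filter on low coverage and were tested. The members were named by symbol, in a set chosen with earlier results of these data known.

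In outline, precursor proteins bind receptors of the translocase of the outer membrane (TOM) and pass through its central pore. Those with a cleavable presequence are taken up by the TIM23 complex of the inner membrane and pulled into the matrix by a motor built around the mitochondrial Hsp70, which the gene Hspa9 encodes. Carrier proteins of the inner membrane are instead escorted by small TIM chaperones to the TIM22 complex, and barrel-shaped proteins of the outer membrane are inserted by the sorting and assembly machinery around Samm50. In the matrix the presequence is cut off by a processing peptidase, and the chaperonin Hspd1 with its lid Hspe1 folds many of the arrivals. The same machinery works in all cells with mitochondria, B lymphocytes among them.

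Polyadenylated RNA came from splenic B lymphocytes of mice aged 6 weeks, with 4 biological replicates of each genotype. WT mice were C57BL/J6. Eμ-Myc mice carry a Myc transgene under the immunoglobulin heavy-chain enhancer, which is active in the B lineage, so the transgene is a model of Myc excess in B cells only. The third genotype, Eμ-Myc; PRPS2 KO, carries the same transgene and lacks PRPS2, an enzyme that makes phosphoribosyl pyrophosphate for nucleotide synthesis. It is called the knockout group below, and no mice without the transgene but lacking PRPS2 were analysed here. The labels do not say whether the deletion was whole-body or restricted to B cells, nor whether the Eμ-Myc mice had tumours. The labels call the libraries biological replicates without saying whether each came from 1 animal, so p-values measure the spread between these libraries. Values are the coverages per gene that the authors deposited, divided by a factor for each library (scaled coverage).

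The sum of deposited coverage ran from 1277305.5 to 1885768.9 per library, and 14900 to 16231 genes were above 0. How many reads lie behind each value is not known, so errors here are the spread between libraries. The labels were checked first on the targeted gene: scaled coverage of Prps2 was 18.3, 17.0, 17.1 and 16.2 in the knockout libraries against 246 ± 36.6 (SD, n = 4) in Eμ-Myc and 125 ± 19.7 in WT. Myc was at 272 ± 52.9 in WT, 1915 ± 312 in Eμ-Myc and 1099, 1719, 3018 and 3282 in knockout libraries 1 to 4. All 8 B-cell markers were present in every group, with summed scaled coverage of 15915, 25248, 22067 and 15507 in WT libraries 1 to 4, 13608 to 18064 in Eμ-Myc and 9802 to 15810 in the knockout group; 2 of them, Cd22 and Cd74, fell in Eμ-Myc against WT, and Cd22 fell in the knockout group against WT too. Markers of other cells were present as well: the 10 T-cell markers summed to 1459, 804, 1004 and 4365 in WT libraries 1 to 4, 179 to 250 in Eμ-Myc, and 938, 1051, 78.7 and 77.5 in knockout libraries 1 to 4. All 10 fell in Eμ-Myc against WT, as did 6 of 6 NK-cell markers, which summed to 976, 338, 382 and 1429 in WT and 91.9 to 237 in Eμ-Myc. The 8 myeloid markers summed to 8162 to 24506 in WT and 5671 to 16633 in Eμ-Myc, with none passing the test, and to 15286, 11407, 2993 and 1309 in knockout libraries 1 to 4. The 4 platelet markers summed to 75.1 to 376 in WT, 68.8 to 139.6 in Eμ-Myc, and 126, 31.9, 33.5 and 38.4 in knockout libraries 1 to 4; 1 of them, Itga2b, fell in Eμ-Myc against WT, and 4 of 4 fell in the knockout group against WT. The 5 plasma-cell markers summed to 609 to 915 in WT, 966 to 1222 in Eμ-Myc and 809 to 993 in the knockout group. Of these Mzb1 rose in both against WT, and Prdm1 and Xbp1 fell in Eμ-Myc. Jchain, the joining chain of secreted antibody, was at 184, 234, 2.00 and 2.44 in knockout libraries 1 to 4. The 8 erythroid markers summed to 77.7 to 849 in WT, 87.6 to 519.6 in Eμ-Myc and 89.0 to 133 in the knockout group, and none passed. No marker of any list was at 0 in all libraries of a group. Knockout libraries 1 and 2 stood apart from libraries 3 and 4 in T-cell, NK-cell and myeloid markers, in Jchain and in Myc, and results on the knockout group are given with and without single libraries. In WT, libraries 1 and 4 were above libraries 2 and 3 in summed T-cell, NK-cell, myeloid and erythroid markers and below them in summed B-cell and platelet markers. The myeloid markers differed among themselves. WT library 4 was above libraries 2 and 3 for Lyz2, Itgam, S100a8 and S100a9, but the lowest of WT for Csf1r, Adgre1, Cd14 and Fcgr1. WT library 1 was under library 3 for Csf1r and Adgre1. In WT libraries 1 to 4 the myeloid markers summed to 24506, 8180, 8162 and 14411. The erythroid markers summed there to 161, 119, 77.7 and 849, and the platelet markers to 219, 376, 355 and 75.1. Library quality weights in the comparison of Eμ-Myc with WT were 0.404, 1.48, 1.85 and 0.419 for WT libraries 1 to 4. Both comparisons with WT rest on these libraries. In bulk RNA, fewer cells of a type and less RNA per cell cannot be told apart.

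The first comparison asks what the Myc transgene did to the import genes. Of the 37 tested, 33 rose in Eμ-Myc against WT, none fell and 4 did not pass the test. Over all 12704 genes tested, 30.5% were called higher and 24.7% lower (limma, adjusted p under 0.05). The median log2 fold change was 0.91 over the 37 import genes and -0.01 over all genes tested. In 31 of the 37, all 4 Eμ-Myc libraries lay above all 4 WT libraries, against 28.7% of all genes. Grouped by the route their names belong to, 11 of 12 genes of the outer-membrane list, 6 of 8 of the small TIM and carrier list, 10 of 11 of the presequence and motor list, and 6 of 6 of the matrix list passed. The outer-membrane list counts the cytosolic co-chaperone Tomm34, and the presequence list counts Timmdc1, an assembly factor of respiratory complex I. The largest log2 fold changes, with 0.5 added to each value, were those of Timm8a1, 1.98, Tomm5, 1.89, and Hspd1, 1.89, and 13 genes rose by at least 1 on the log2 scale, against 12.2% of all genes. The 4 that did not pass were Tomm34, Timm10b, Timm29 and Grpel2. Summed over all members, scaled coverage ran from 3435 to 3953 in WT and from 6433 to 8424 in Eμ-Myc, so the groups did not overlap.

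Scaling by total coverage lowered the median of all genes to -0.19 and the share of calls that were increases from 55.2% to 42%. The members' median then stood at 0.73, which was 0.91 above the median of all genes, against 0.92 above it with the scaling used here. Of the 33 calls, those of Timm17b and Timmdc1 were lost in most alternatives, and those of Timm8b and Dnajc19 in 1 each, as given beside those genes. T-cell and NK-cell markers, the B-cell markers Cd22 and Cd74, the platelet marker Itga2b, and Prdm1 and Xbp1 were lower, and Mzb1 higher, in the same Eμ-Myc libraries in which the import genes were higher, with the summed values above; their part in the increase was not tested. All 12 libraries had 38 or 39 of the 40 members above 0.

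**Figure D1:**
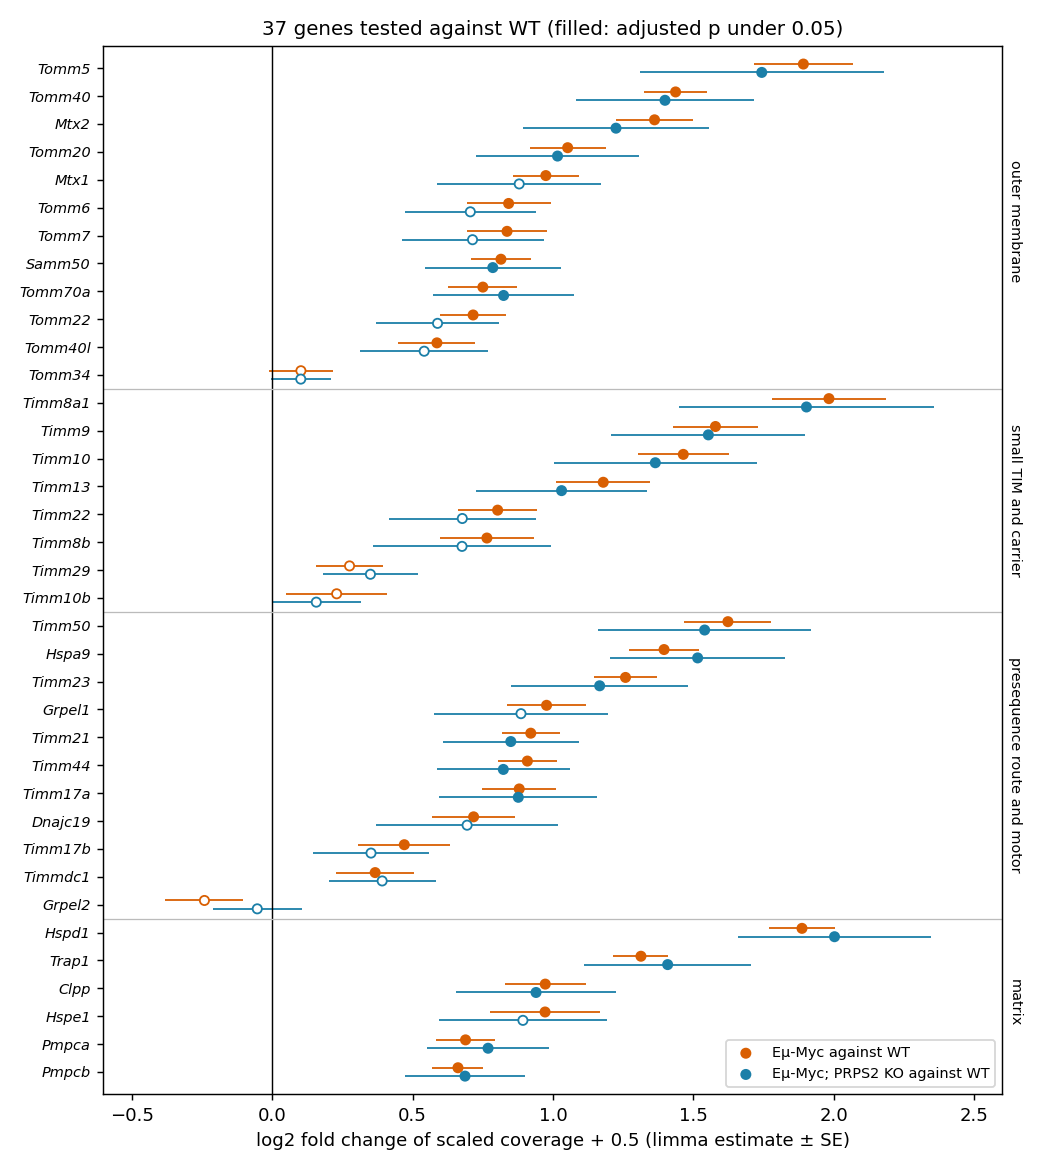
Log2 fold change against WT (limma estimate with SE as the bar) of the 37 import genes tested, in Eμ-Myc (orange) and in the knockout group (blue), ordered by list; filled points passed an adjusted p of 0.05. Of the orange points 33 are filled and lie right of 0, and of the blue points 21 are, with wider error bars.

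Promoter sequence was examined for the E-box CACGTG, which Myc with its partner Max is known to bind. RefSeq windows from 250 bases before to 50 after the start (GRCm38.p6) were on hand for 35 of the 40 members, and were not used here for Grpel2, Timm21, Tomm7, Tomm40l and Hspa9. The letters CACGTG read the same on both strands. They occurred in the windows of 7 of the 35 members (20%), namely Hspd1, Timm10, Tomm20, Tomm20l, Timm9, Tomm6os and Timm8a1, against 8.09% of 27025 genes with a window. A match is a description of the letters only, and binding was not measured. Tomm20l was at 0 in all 12 libraries, and neither it nor Tomm6os was tested. The 27025 genes include many that were not tested here, so the shares rest on unlike sets. Most of the members that rose and had a window had no match. Shown are the windows, or stretches of them outside their own gene as annotated, of 4 members that rose and carry the motif: an outer-membrane receptor, 2 small TIM chaperones and the chaperonin. All 4 genes lie on the minus strand, and capitals mark the motif. The Hspd1 stretch is chr1:55088308-55088333, with the motif starting 80 bases before the start of Hspd1 and inside the first exon annotated for its neighbour Hspe1. The Tomm20 stretch is chr8:126945922-126946171, the 250 bases before the start, with the motif starting at base 126 before it. The Timm9 stretch is chr12:71136709-71136847, with the motif 58 bases before the start used for its window, a start inside the gene's full RefSeq span, and another match outside the stretch. The Timm8a1 stretch is chrX:134541866-134541920, with the motif 236 bases before the start, and another match outside the stretch.
Hspd1: ccggctgggaCACGTGaaaaggccgc
Tomm20: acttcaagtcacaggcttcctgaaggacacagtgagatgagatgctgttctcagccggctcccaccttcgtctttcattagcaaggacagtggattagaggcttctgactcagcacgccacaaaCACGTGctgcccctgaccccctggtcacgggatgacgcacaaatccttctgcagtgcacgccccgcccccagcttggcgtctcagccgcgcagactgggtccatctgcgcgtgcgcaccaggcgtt
Timm9: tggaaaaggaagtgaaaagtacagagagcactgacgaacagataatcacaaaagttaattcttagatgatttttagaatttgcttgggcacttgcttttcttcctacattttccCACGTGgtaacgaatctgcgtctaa
Timm8a1: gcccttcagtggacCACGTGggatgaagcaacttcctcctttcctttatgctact

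At the outer membrane, the receptors and the pore rose. Tomm20, the receptor that reads presequences, had scaled coverage of 20.8, 26.2, 21.8 and 24.9 in WT libraries 1 to 4, 40.1, 47.6, 54.0 and 55.7 in Eμ-Myc and 29.96, 36.2, 68.5 and 69.7 in the knockout group. Every Eμ-Myc library lay above every WT library, and the log2 fold change was 1.05 ± 0.14 (SE, limma, adjusted p = 1.85e-04). Tomm22, the central receptor that joins the others to the pore, measured 211, 214, 184 and 188 in WT, 274, 380.2, 321 and 339 in Eμ-Myc and 211, 248, 386 and 395 in the knockout group. The WT and Eμ-Myc libraries again did not overlap, with a log2 fold change of 0.72 ± 0.12 (adjusted p = 7.97e-04). Tomm70a encodes the receptor favoured by carrier proteins, and its scaled coverage was 55.8, 69.5, 68.5 and 66.7 in WT, 105, 92.7, 120.1 and 123 in Eμ-Myc and 76.8, 92.6, 157 and 157 in the knockout group. It rose by 0.75 ± 0.12 (adjusted p = 7.48e-04) on the log2 scale. Tomm40, the channel itself, gave 122, 151, 135 and 139 in WT, 317, 411, 372 and 385 in Eμ-Myc and 209.5, 273, 568 and 517 in the knockout group. Here the rise was larger, 1.44 ± 0.11 (adjusted p = 9.74e-06), and the lowest Eμ-Myc library was above the highest WT library.

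Among the small TOM subunits that hold the complex together, Tomm5 stood out, with 150.5, 195, 159 and 157 in WT, 421, 658, 725 and 696 in Eμ-Myc and 273, 350.0, 1042 and 929 in the knockout group. Its log2 fold change was 1.89 ± 0.18 (adjusted p = 2.87e-05), the largest of the outer-membrane list. Tomm6 and Tomm7 rose by 0.84 and 0.84, from 312 ± 23.5 to 568 ± 122 and from 104 ± 7.67 to 189 ± 33.7 in scaled coverage (SD, n = 4). The Tomm40 paralog Tomm40l was lower in level and rose from 24.7 ± 3.85 to 37.2 ± 3.47. Samm50, which inserts barrel proteins into the outer membrane, measured 60.3, 72.9, 59.9 and 67.0 in WT, 101, 123, 118 and 118 in Eμ-Myc and 76.5, 89.8, 157 and 146 in the knockout group. No WT library reached the Eμ-Myc range, and the log2 fold change was 0.81 ± 0.11 (adjusted p = 1.90e-04). Its metaxin partners rose too: Mtx1 from 104 ± 8.96 to 206 ± 27.1, and Mtx2 by 1.36 ± 0.14 (adjusted p = 4.34e-05). Scaled coverage of Mtx2 was 36.7, 48.0, 39.5 and 39.6 in WT, 83.0, 114, 117 and 112 in Eμ-Myc and 54.1, 72.6, 149.8 and 143 in the knockout group, with Eμ-Myc library 1 well under the other Eμ-Myc libraries but above all of WT. Tomm34, a cytosolic co-chaperone for precursors and not a part of the TOM complex, was the exception, at 170.3, 157, 163 and 192 in WT, 193, 210.4, 161 and 169 in Eμ-Myc and 182, 184, 177 and 186 in the knockout group. Its groups overlapped and its log2 fold change was 0.10 ± 0.11 (adjusted p = 0.467), a sign that turned with total coverage scaling, to -0.080.

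In the space between the membranes, small TIM proteins form rings that keep hydrophobic precursors soluble. Timm9 and Timm10, partners in the main ring, both rose. Timm9 measured 93.6, 118, 99.3 and 138 in WT, 278, 391, 327 and 344 in Eμ-Myc and 183, 248, 516 and 487 in the knockout group, a log2 fold change of 1.58 ± 0.15 (adjusted p = 3.13e-05). Timm10 measured 31.8, 46.2, 32.7 and 32.3 in WT, 78.9, 119, 97.4 and 102 in Eμ-Myc and 50.5, 66.2, 146 and 144 in the knockout group, a log2 fold change of 1.46 ± 0.16 (adjusted p = 7.36e-05). In both genes the lowest Eμ-Myc library was above the highest WT library. The partner ring is built from Timm8 and Timm13 proteins. Timm13 was at 73.8, 94.2, 73.0 and 78.2 in WT, 137, 242, 173 and 185 in Eμ-Myc and 98.6, 123, 249.8 and 229.8 in the knockout group, and rose by 1.18 ± 0.17 (adjusted p = 3.32e-04). The paralogs Timm8a1 and Timm8b differed in level: Timm8b was at 91.5, 106, 92.2 and 79.3 in WT, 110.5, 186, 168 and 172 in Eμ-Myc and 94.1, 100.2, 220.1 and 224 in the knockout group. Timm8a1, the counterpart of the human deafness-dystonia gene, was at 2.98, 3.09, 2.17 and 3.80 in WT, 10.1, 14.2, 15.001 and 14.0 in Eμ-Myc and 5.79, 8.09, 23.8 and 20.9 in the knockout group. The lowly covered Timm8a1 rose by 1.98 ± 0.20 (adjusted p = 4.70e-05), and Timm8b by 0.76 ± 0.17 (adjusted p = 0.00400). The size of the Timm8a1 estimate depends on the constant added before the log: with 2 in place of 0.5 it was 1.61, below those of Tomm5 and Hspd1. The Timm8b call was lost when all 12 libraries shared 1 fit (adjusted p = 0.0535).

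Timm22, the channel of the carrier translocase, had scaled coverage of 47.6, 66.1, 55.2 and 48.7 in WT, 76.9, 98.3, 100.2 and 105 in Eμ-Myc and 60.7, 65.0, 125 and 114 in the knockout group. It did not overlap between WT and Eμ-Myc and rose by 0.80 ± 0.14 (adjusted p = 0.00111). The members hold 2 further subunits of that complex, neither of which passed. Timm10b was at 445, 362, 321 and 337 in WT, 347, 604, 376 and 419 in Eμ-Myc and 355, 354, 478 and 448 in the knockout group, and its groups overlapped, with WT library 1 above 3 of the 4 Eμ-Myc libraries. The log2 fold change of Timm10b was 0.23 ± 0.18 (adjusted p = 0.3001). Timm29 had means of 34.2 ± 2.56 in WT and 41.7 ± 5.31 in Eμ-Myc, a log2 fold change of 0.28 ± 0.12 (adjusted p = 0.0766). Leaving out Eμ-Myc library 2, the lowest of its group for Timm29, brought that gene past the threshold (log2 fold change 0.36, adjusted p = 0.0192; 0.00468 to 0.569 over all alternatives). Timm8a2, a further Timm8 paralog, never exceeded a scaled coverage of 0.454 and was not tested.

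For proteins with a presequence, the inner-membrane channel is formed by Timm23 with Timm17a or Timm17b. Timm23 measured 27.2, 30.2, 23.7 and 29.0 in WT, 59.4, 66.8, 72.6 and 66.7 in Eμ-Myc and 35.3, 49.1, 95.9 and 89.1 in the knockout group. Its groups did not overlap between WT and Eμ-Myc, and the log2 fold change was 1.26 ± 0.11 (adjusted p = 2.20e-05). Timm17a gave 134, 169, 138 and 173 in WT, 234, 318, 293 and 286 in Eμ-Myc and 176, 224, 415 and 377 in the knockout group, a rise of 0.88 ± 0.13 (adjusted p = 4.39e-04). Timm17b, the paralog that can take its place, gave 120.4, 153, 118 and 115 in WT, 131, 223, 176 and 181 in Eμ-Myc and 119, 139, 201 and 202 in the knockout group. The WT and Eμ-Myc libraries of Timm17b overlapped, and its log2 fold change of 0.47 ± 0.16 (adjusted p = 0.0347) passed only narrowly. The call of Timm17b was lost in 9 of 17 alternatives, among them leaving out any one of WT libraries 1, 3 and 4 or Eμ-Myc libraries 2, 3 and 4 (adjusted p 0.0708 to 0.0788; 0.00683 to 0.106 over all alternatives). Timm50, the receptor that takes precursors from the TOM complex, was at 49.8, 69.5, 58.3 and 55.0 in WT, 135, 194, 205 and 190.2 in Eμ-Myc and 89.5, 119, 289 and 264 in the knockout group. This was the largest rise of the route, 1.62 ± 0.15 (adjusted p = 3.14e-05), and no library of WT came near the Eμ-Myc range. Timm21, which links the TOM and TIM23 complexes, rose from 34.2 ± 3.03 to 65.2 ± 4.65; its span lies inside that of Fbxo15.

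Of the 5 members described here that belong to the motor pulling chains into the matrix or are kin to its parts, 4 rose and Grpel2 did not pass. Hspa9, its Hsp70, had scaled coverage of 114, 138, 131 and 130.1 in WT, 323, 278, 377 and 382 in Eμ-Myc and 214, 282, 549.6 and 545 in the knockout group. The lowest Eμ-Myc value was well above the highest WT value, and the log2 fold change was 1.40 ± 0.12 (adjusted p = 2.09e-05). Timm44, which tethers the motor to the channel, measured 53.0, 59.9, 53.2 and 61.9 in WT, 94.8, 120.2, 107 and 109 in Eμ-Myc and 65.8, 87.4, 134 and 134 in the knockout group, and rose by 0.91 ± 0.11 (adjusted p = 9.68e-05). Dnajc19, a J protein kin to the motor's co-chaperones, measured 47.7, 56.8, 57.7 and 48.9 in WT, 65.4, 100.3, 95.4 and 90.7 in Eμ-Myc and 52.2, 59.2, 139 and 123 in the knockout group. It rose by 0.72 ± 0.15 (adjusted p = 0.00265), a call lost when all 12 libraries shared 1 fit (adjusted p = 0.0649), and its span shares 12701 bases with Fxr1. Grpel1 and Grpel2 encode the nucleotide exchange factors that reset mitochondrial Hsp70. Grpel1 was at 28.6, 38.6, 33.3 and 32.2 in WT, 51.6, 71.0, 72.3 and 69.3 in Eμ-Myc and 38.0, 44.6, 93.4 and 89.8 in the knockout group, and rose by 0.98 ± 0.14 (adjusted p = 3.56e-04). Grpel2 was at 17.3, 24.7, 22.9 and 18.9 in WT, 18.1, 16.4, 17.6 and 18.0 in Eμ-Myc and 17.4, 21.4, 20.3 and 21.2 in the knockout group, with all groups overlapping. Its log2 fold change was -0.24 ± 0.14 (adjusted p = 0.166), the only one of the 37 below 0. With total coverage scaling it passed as lower (-0.42, adjusted p = 0.04997), as it did with library quality weights (-0.34, adjusted p = 0.0128); over all alternatives its adjusted p ran from 0.0128 to 0.382. Timmdc1 resembles the Timm17 and Timm23 family but is known as an assembly factor of respiratory complex I. It went from 19.7 ± 2.46 to 25.6 ± 3.30, a log2 fold change of 0.37 ± 0.14 (adjusted p = 0.0467). That call was lost in 10 of 17 alternatives, among them leaving out WT libraries 1, 3 or 4 or Eμ-Myc libraries 2, 3 or 4 (adjusted p 0.0555 to 0.123; 0.0178 to 0.228 over all alternatives).

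Every gene of the matrix list rose. Pmpca and Pmpcb are the subunits of the peptidase that removes presequences. Pmpca was at 49.8, 58.0, 51.9 and 50.1 in WT, 84.1, 74.3, 85.8 and 95.8 in Eμ-Myc and 62.8, 75.5, 114 and 118 in the knockout group, and its log2 fold change was 0.69 ± 0.11 (adjusted p = 5.23e-04). Pmpcb was at 57.8, 66.5, 63.7 and 62.9 in WT, 90.7, 103, 102 and 103 in Eμ-Myc and 76.4, 78.1, 133 and 131 in the knockout group, with a change of 0.66 ± 0.09 (adjusted p = 2.63e-04). Neither subunit overlapped between WT and Eμ-Myc. Hspd1, the barrel of the chaperonin, was at 257, 238, 224 and 276 in WT, 849.6, 809.6, 1055 and 982 in Eμ-Myc and 532, 769, 1552 and 1548 in the knockout group. It rose by 1.89 ± 0.12 (adjusted p = 3.48e-06), the smallest adjusted p of the set. Hspe1, its lid, was at 254, 229, 188 and 371 in WT, 407, 553, 520.3 and 515 in Eμ-Myc and 326, 362, 665 and 619 in the knockout group. WT library 4 was the highest of its group for Hspe1 but stayed under all Eμ-Myc libraries, and the log2 fold change was 0.97 ± 0.20 (adjusted p = 0.00253). Hspd1 (chr1:55077833-55088243) and Hspe1 (chr1:55088148-55091317, GRCm38.p6) lie head to head and share 96 bases in RefSeq. Whether the authors' coverage step used the strand is not given in the sources used here, so reads in shared bases could not be assigned. In RefSeq, 15 of the 40 members overlap another listed gene over their full spans, introns included. Timm21 lies wholly inside the span of Fbxo15 (5340 bases), and Dnajc19 shares 12701 bases with Fxr1. Tomm40l shares 1044 bases with Nr1i3 and 951 with Apoa2, Pmpca 873 with Inpp5e, Tomm6 780 with Frs3, and Grpel1 408 with Tada2b. The others share 46 to 110 bases, apart from Tomm6os, which lies wholly inside the span of Frs3 (3483 bases). Trap1, the Hsp90 of mitochondria, measured 135, 155, 147 and 152 in WT, 338, 341, 391 and 398 in Eμ-Myc and 233, 307, 574 and 570.0 in the knockout group. Its rise was 1.31 ± 0.10 (adjusted p = 8.03e-06). Clpp, the proteolytic subunit of a matrix protease, measured 38.6, 46.1, 41.2 and 48.4 in WT, 66.9, 104, 87.4 and 88.3 in Eμ-Myc and 53.1, 63.9, 128 and 113 in the knockout group, and rose by 0.97 ± 0.14 (adjusted p = 4.14e-04).

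**Figure D2:**
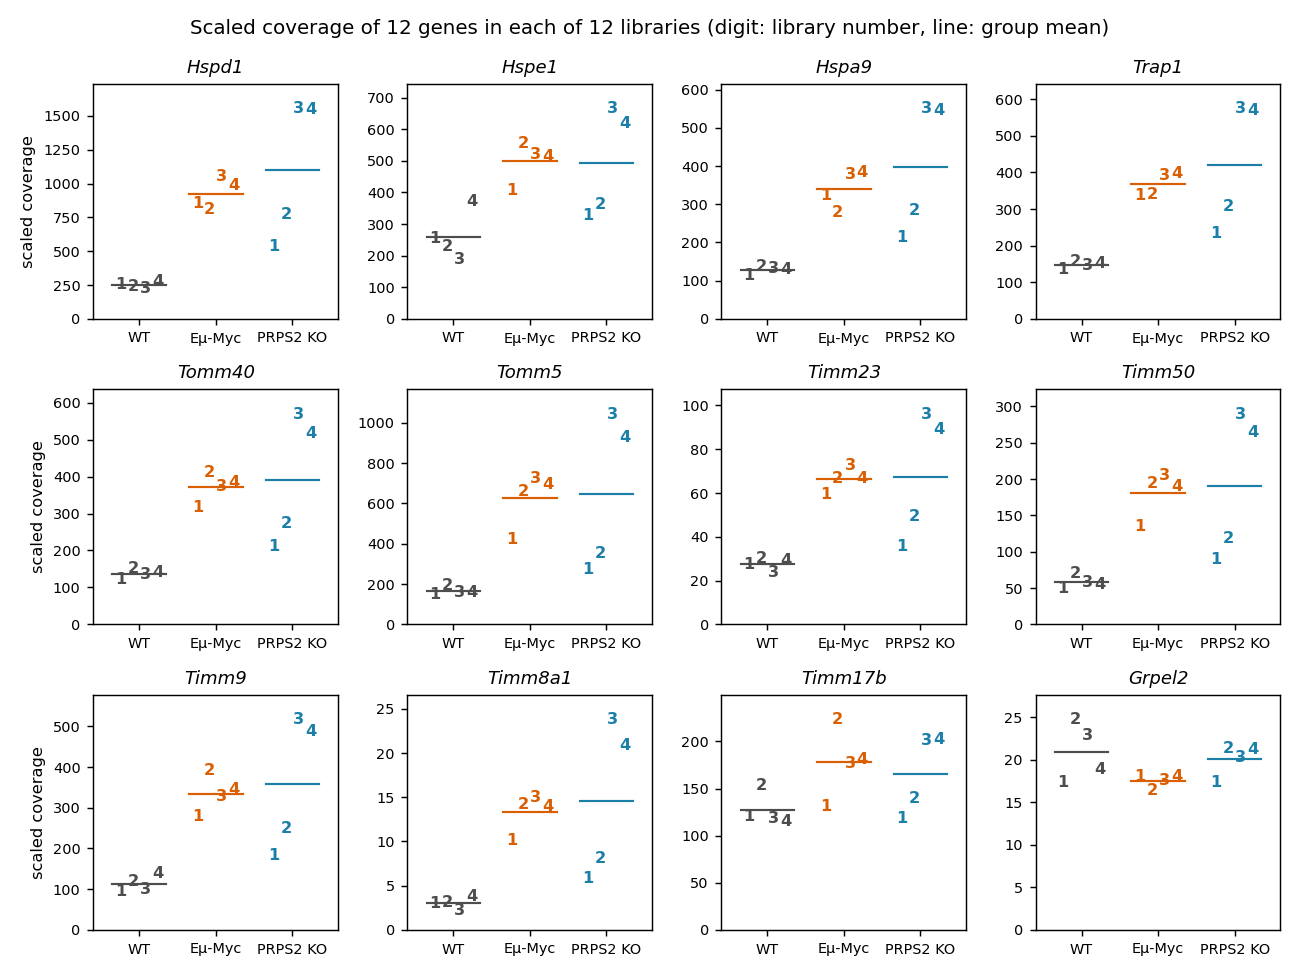
Scaled coverage of 12 import genes in each of the 12 libraries; digits are library numbers within a group, lines are group means, and each panel has its own axis from 0. Hspd1, Hspa9 and Tomm40 separate WT from Eμ-Myc fully, Grpel2 and Timm17b do not, and in most panels knockout libraries 1 and 2 sit under and libraries 3 and 4 over the Eμ-Myc libraries.

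The order of levels between genes is given on the reading that coverage is averaged along each gene, which the sources used here do not state; without it, the order would mix level and length. In WT the highest scaled coverage among the members was that of Timm10b, 366 ± 55.2 (SD, n = 4), then Tomm6, 312 ± 23.5, Hspe1, 261 ± 78.6, and Hspd1, 249 ± 22.2. These neighbours in rank overlapped between libraries. In Eμ-Myc the order was led by Hspd1, 924 ± 114, then Tomm5, 625 ± 139, Tomm6, 568 ± 122, and Hspe1, 499 ± 63.6. Hspd1 alone of these 4 stood clear of the next gene there, its lowest library being 809.6 against a highest Tomm5 library of 725. The receptor Tomm20, at 23.5 ± 2.55 in WT and 49.4 ± 7.08 in Eμ-Myc, was far under its partner Tomm22, at 199 ± 15.5 and 329 ± 44.2. Timm23 was under both Timm17 paralogs in every group. At the low end of the tested members were Timm8a1, Timmdc1 and Grpel2. The untested Tomm6os is a noncoding transcript that overlaps Tomm6 by 777 bases on the opposite strand. Its scaled coverage was 0.157 to 0.377 in WT, 0.719 to 1.13 in Eμ-Myc and 0.519 to 1.22 in the knockout group. Without strand, its reads in the shared bases cannot be told apart from those of Tomm6. The whole span of Tomm6os, 3483 bases, also lies inside that of Frs3.

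Ratios of paralogs or partners within a library do not depend on the scaling and were compared for 4 pairs. The log2 ratio of Grpel1 to Grpel2 was 0.72, 0.64, 0.54 and 0.77 in WT libraries 1 to 4, 1.51, 2.12, 2.04 and 1.94 in Eμ-Myc and 1.13, 1.06, 2.20 and 2.08 in the knockout group. WT did not overlap with either other group. The mean difference was 1.23 in Eμ-Myc against WT and 0.95 in the knockout group against WT. The log2 ratio of Hspd1 to Hspe1 was 0.02, 0.06, 0.26 and -0.43 in WT, 1.06, 0.55, 1.02 and 0.93 in Eμ-Myc and 0.71, 1.09, 1.22 and 1.32 in the knockout group. That is near equal coverage in WT and more Hspd1 than Hspe1 in every other library. For Timm8a1 to Timm8b the log2 ratio was -4.94, -5.10, -5.41 and -4.38 in WT, -3.45, -3.72, -3.49 and -3.62 in Eμ-Myc, and -4.02, -3.63, -3.21 and -3.43 in the knockout group. Timm8a1 thus stayed the minor paralog in all libraries and its ratio was higher in every library with the transgene than in any of WT. In each of these 3 pairs the exact two-sided permutation p against WT was 0.0286 for both genotypes, the smallest that 70 arrangements can give, and the value adjusted over the 12 tests was 0.0571, so none passed. For Timm17a to Timm17b the log2 ratio was 0.15, 0.14, 0.22 and 0.59 in WT, 0.83, 0.51, 0.73 and 0.66 in Eμ-Myc and 0.57, 0.68, 1.05 and 0.90 in the knockout group. WT library 4 overlapped with both other groups (exact permutation p = 0.0571, adjusted 0.0857, in both). Between the knockout group and Eμ-Myc all 4 pairs overlapped, with exact permutation p of 0.400 for Grpel1 to Grpel2, 0.314 for Hspd1 to Hspe1, 0.971 for Timm8a1 to Timm8b and 0.371 for Timm17a to Timm17b.

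**Figure D3:**
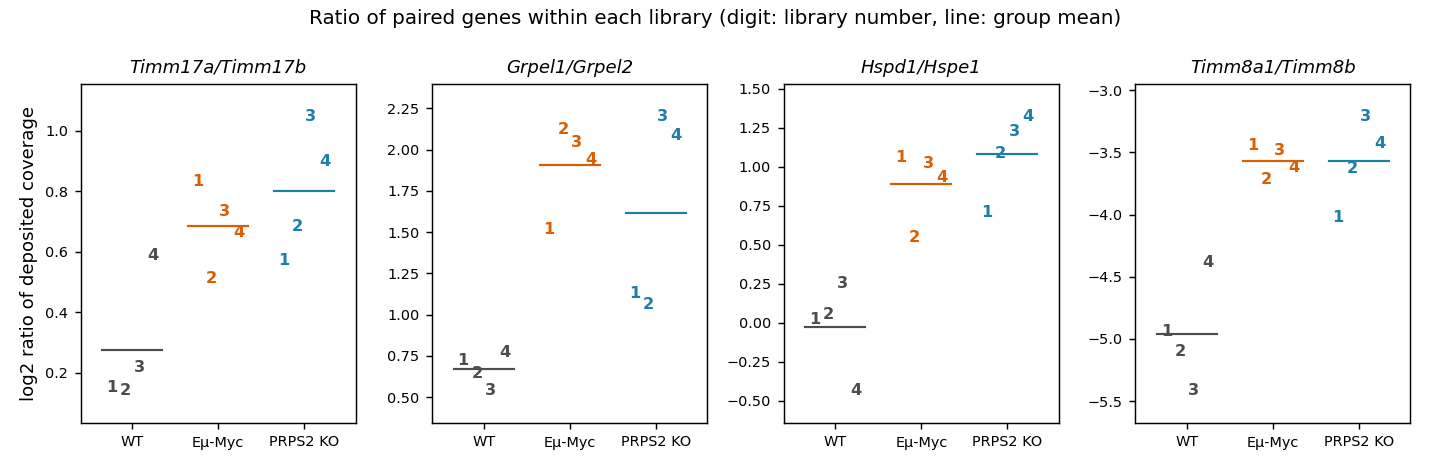
Log2 ratio of deposited coverage between the genes of 4 pairs in each library; digits are library numbers, lines are group means, and axes differ between panels and do not start at 0. For Grpel1 to Grpel2, Hspd1 to Hspe1 and Timm8a1 to Timm8b all WT libraries lie under all libraries with the transgene, and for Timm17a to Timm17b WT library 4 overlaps with them.

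The next comparison asks whether loss of PRPS2 altered the import genes on top of the transgene. None of the 37 passed the test in the knockout group against Eμ-Myc (limma, adjusted p = 1.00 for each), and none had an unadjusted p under 0.05. Among all 12535 genes tested, 0.00798% were called, which was Prps2 itself, and 0.957% had an unadjusted p under 0.05. The members' median log2 fold change was -0.07, against -0.03 for all genes, with 9 above 0 and 28 below, where 43.4% of all genes were above 0. The ends of the range were Grpel2, 0.19 ± 0.12 (adjusted p = 1.00), Hspa9, 0.12 ± 0.32 (adjusted p = 1.00), and Hspd1, 0.12 ± 0.35 (adjusted p = 1.00), on the upper side, and Timm13, -0.15 ± 0.33 (adjusted p = 1.00), Tomm5, -0.15 ± 0.46 (adjusted p = 1.00), and Mtx2, -0.14 ± 0.34 (adjusted p = 1.00), on the lower. The libraries of both groups overlapped for all 37, and 1.53% of all genes did not overlap. With a median SE of 0.28, changes of this size could not be resolved, and a missed threshold does not show that the groups were alike.

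What set the knockout group apart was the spread between its own libraries. The median coefficient of variation of the 37 genes was 38.9% there, against 13.2% in Eμ-Myc and 10.2% in WT; over all genes tested it was 27.8%, 15.4% and 15.8%. Knockout library 1 was below all 4 Eμ-Myc libraries for 34 of the 37 genes and library 2 for 29, while library 3 was above all of them for 33 and library 4 for 31. Over all genes, 36.7% in library 1 and 29.7% in library 2 lay below the Eμ-Myc range, and 36.7% in library 3 and 36.2% in library 4 above it. The median log2 distance of the members from the Eμ-Myc mean was -0.67, -0.43, 0.47 and 0.40 in libraries 1 to 4. In 31 members, and in 3641 of all genes, every Eμ-Myc library lay above every WT library. Of those, library 1 lay in the gap between the groups for 24 members (77.4%, against 64% of the 3641 genes) and library 2 for 26 (83.9%, against 63.1%). Library 1 was within the WT range for 13 of the 37 members and library 2 for 7, where 51.1% and 40.8% of all genes were, and libraries 3 and 4 for 2 each, against 15.7% and 16.2%. Summed over the members, scaled coverage was 4770 and 5815 in libraries 1 and 2 and 11062 and 10481 in libraries 3 and 4. Hspd1 shows the pattern, at 532 and 769 against 1552 and 1548, as does Tomm5 at 273 and 350.0 against 1042 and 929. Tomm34 and Grpel2 varied much less, with 182 ± 3.74 and 20.1 ± 1.85 (SD, n = 4). Other measures split libraries 1 and 2 from libraries 3 and 4 as well. Myc was at 1099, 1719, 3018 and 3282. T-cell markers summed to 938, 1051, 78.7 and 77.5, NK-cell markers to 552, 426, 23.9 and 21.2, myeloid markers to 15286, 11407, 2993 and 1309, and B-cell markers to 15810, 15761, 9802 and 10092. Platelet markers set library 1 apart from the other 3, and Jchain libraries 1 and 2 from 3 and 4. Their part in the spread of the import genes, and in the comparison with WT, was not tested.

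**Figure D4:**
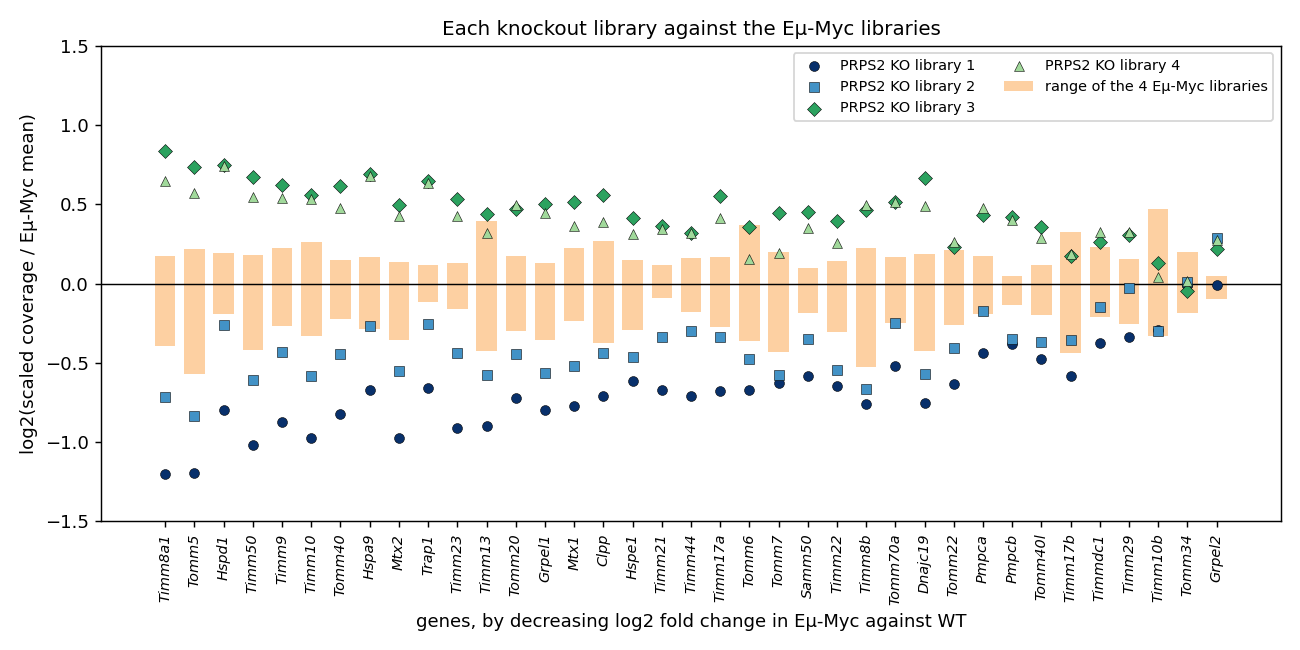
Log2 of scaled coverage in each knockout library over the Eμ-Myc mean for the 37 tested genes, ordered by their change in Eμ-Myc against WT; orange bars span the 4 Eμ-Myc libraries. For most genes libraries 1 and 2 (blue) lie under the bar and libraries 3 and 4 (green) over it, and for Tomm34 and Grpel2 the libraries lie close together.

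The fit depended on how these libraries were weighed. With library quality weights, which gave knockout libraries 1 to 4 weights of 0.0816, 0.129, 3.20 and 7.78, 33 of the 37 passed as higher in the knockout group than in Eμ-Myc, with a median log2 fold change of 0.39. That fit rests almost wholly on libraries 3 and 4, and in it 31.2% of all genes passed as higher and 59.5% in either direction. Leaving out 1 library at a time left the count at 0, while the members' median ran from -0.23 without knockout library 3 to 0.16 without knockout library 1, so its sign followed the library left out. The number of members with an estimate above 0 was 9 of 37 in the fit of all libraries, 37 with quality weights, and 35, 29, 2 and 1 without knockout library 1, 2, 3 or 4.

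Against WT, 36 of the 37 estimates were above 0 in the knockout group (49.2% of all genes) and 36 of 37 in Eμ-Myc (49.6% of all genes). The members' median SE was 0.28 in the knockout group and 0.14 in Eμ-Myc. Of the 37, 21 rose, none fell and 16 did not pass, where 19.7% of all 12692 genes tested were called higher and 9.52% lower. The median log2 fold change was 0.85, against -0.01 for all genes, and in 24 of the 37 the groups did not overlap, against 22.2% of all genes. On the same lists as above, 6 of 12 outer-membrane, 4 of 8 small TIM and carrier, 6 of 11 presequence and 5 of 6 matrix genes passed; Tomm34 and Timmdc1 were not among them. The 21 were all among the 33 that passed in Eμ-Myc, and both comparisons share the WT libraries. The largest estimates, with 0.5 added, were those of Hspd1, 2.00 ± 0.35 (adjusted p = 0.0115), Timm8a1, 1.90 ± 0.46 (adjusted p = 0.0260), and Tomm5, 1.74 ± 0.43 (adjusted p = 0.0281). Next to them stood Timm9, 1.55 ± 0.34 (adjusted p = 0.0221), Timm50, 1.54 ± 0.38 (adjusted p = 0.0275), Hspa9, 1.51 ± 0.31 (adjusted p = 0.0183), Trap1, 1.41 ± 0.30 (adjusted p = 0.0195), and Tomm40, 1.40 ± 0.32 (adjusted p = 0.0234). The smallest were those of Grpel2, -0.05 ± 0.16 (adjusted p = 0.794), Tomm34, 0.10 ± 0.11 (adjusted p = 0.443), and Timm10b, 0.16 ± 0.16 (adjusted p = 0.426), none of which passed. The chaperonin lid Hspe1, at 0.89 ± 0.30 (adjusted p = 0.0540), and Grpel1, at 0.89 ± 0.31 (adjusted p = 0.0590), also missed the threshold.

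The number of calls moved with single libraries, and the share of all genes called higher, 19.7% with every library kept, moved in most of the same settings. Without WT library 1, 2 or 3, or without knockout library 4, 1 import gene passed, which was Hspd1 each time, while 5.95%, 4.6%, 4.47% and 4.73% of all genes were called higher. Without WT library 4, Hspd1, Hspa9, Timm9 and Trap1 passed, with 8.15% of all genes. Without knockout library 3 the genes were Hspd1 and Hspa9, with 5.12%. Without knockout library 2, 26 passed, with 19.7%, and without knockout library 1, 34, with 29.6%. Hspd1 was thus the gene that passed whichever library was left out, with log2 fold changes of 1.79 to 2.30 and adjusted p of 0.00238 to 0.0447. The members' median moved less than the count, from 0.69 to 1.05.

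Genes that work beside the import machinery were followed as a second list of 32, all of them tested. In Eμ-Myc against WT 23 rose, none fell and 9 did not pass, where 30.5% of all genes were called higher and 24.7% lower. The list's median log2 fold change was 0.73, against -0.01 for all genes. The largest changes were those of Chchd6, a subunit of the cristae-organising MICOS complex, 2.28 ± 0.19 (adjusted p = 1.46e-05), Apoo, another MICOS subunit, 1.64 ± 0.19 (adjusted p = 9.18e-05), and Chchd4, the oxidoreductase that traps cysteine-rich proteins between the membranes, 1.63 ± 0.15 (adjusted p = 2.40e-05). Scaled coverage of Chchd6 was 13.0, 13.8, 12.6 and 8.17 in WT, 45.2, 61.0, 65.8 and 64.6 in Eμ-Myc and 23.0, 32.7, 111 and 103 in the knockout group. All WT values were under all Eμ-Myc values for Chchd6. The other MICOS genes on the list, Immt, Chchd3 and Apool, rose as well. The matrix protease Lonp1 rose by 1.04 ± 0.09 (adjusted p = 1.91e-05) and the prohibitins Phb and Phb2 by 1.51 and 1.18. The smallest changes were those of Mtx3, -0.05 ± 0.19 (adjusted p = 0.832), Dnajc15, -0.03 ± 0.20 (adjusted p = 0.922), and Xpnpep3, 0.04 ± 0.17 (adjusted p = 0.847). Mtx3 is a metaxin paralog and Dnajc15 a J protein of the import motor, and their kin on the main list, Mtx1, Mtx2 and Dnajc19, had passed. The inner-membrane proteases Yme1l1, Oma1 and Spg7 did not pass either, with 0.08, 0.08 and 0.21, whereas Afg3l2 rose by 0.57 ± 0.10 (adjusted p = 0.00118). In the knockout group none of the 32 passed against Eμ-Myc, where 0.00798% of all genes did, and 14 rose against WT, where 19.7% of all genes were called higher. None of the 32 had an unadjusted p under 0.05 against Eμ-Myc (limma), where 0.957% of all genes did. With library quality weights 25 passed as higher, where 31.2% of all genes passed as higher and 59.5% in either direction. The 14 calls against WT were lost when WT library 1, 2 or 3 or knockout library 3 or 4 was left out. In those fits 0 passed (limma), where 4.47% to 5.95% of all genes were called higher. The replicate block left 9 calls, where 11.3% of all genes were called higher. Library quality weights gave 29, where 41.6% of all genes were called higher. Without WT library 4, 2 passed, Apoo and Pitrm1, where 8.15% of all genes were called higher. Leaving out knockout library 2 gave 17 calls and leaving out library 1 gave 22, where 19.7% and 29.6% of all genes were called higher. The count of 23 in Eμ-Myc ran from 23 to 25 without single libraries, where 26.4% to 30.4% of all genes were called higher. It was 21 with total coverage scaling, 22 with all 12 libraries in 1 fit and 27 with library quality weights. In those fits 24.1%, 26.7% and 36.5% of all genes were called higher.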

How the data were processed

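RNA was measured in 12 libraries, grouped by the genotype in the labels. The authors deposited 1 file per library with a coverage signal for each gene, with 1 decimal. The submitters' processing notes name mm10, DESeq and R 4.3.3 without a role; the aligner, the coverage step and its use of strand are not given in the sources used here. Reads per value are unknown, so precision comes from the spread between libraries. The values were not counts, so no count model was used.

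Coverage was divided by a library factor, the unweighted trimmed mean of log ratios (each end trimmed by 30% for ratios and by 5% for mean values). A gene was tested when 4 or more of the 8 libraries of a comparison had scaled coverage of 1 or more, with limma 3.58.1 in R 4.3.3 on log2(scaled coverage + 0.5), with trended, robust empirical Bayes, two-sided, and Benjamini-Hochberg adjustment over all genes at 0.05. Fold changes are on that scale, which understates those of low genes. The method was also run on simulated data with known changes and with noise drawn separately for each gene. Those data lack shifts that many genes of a library share, so they cannot vouch for the knockout comparisons. Pair ratios had exact permutation tests. Promoters came from RefSeq (GRCm38.p6). Python 3.11.15, pandas 2.3.3, numpy 2.4.6, scipy 1.17.1 and matplotlib 3.10.9 were used.

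All members could be named; library values are given for the genes central to each role and for the 3 largest and 3 smallest changes per comparison. Lonp1, Phb, Phb2, Afg3l2, Yme1l1, Oma1, Spg7, Immt, Chchd3 and Apool were named after their values were seen. The members and lists were chosen with earlier results of these data known. Replicate numbers are shared between groups. Deviations of same-numbered knockout and Eμ-Myc libraries correlated across genes with r of 0.639, 0.187, 0.244 and 0.597. A blocked alternative took these as pairs, from the values alone, although only numbers 1 and 4 correlated best with their own number. For Eμ-Myc and WT, r was 0.225, -0.0979, 0.251 and 0.128. For the knockout group and WT, r was 0.391, -0.409, 0.136 and -0.0627. Alternatives were other scalings, filters and pseudocounts, 1 fit of all libraries, a replicate block, quality weights, and leaving out each library.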

Additional observations from a re-analysis of the deposited data

Results flagged for a closer look

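Of 117 groups of 4 libraries checked for a library far from its group (a gap to the nearest library, over the range, above Dixon's critical value), 6 were picked out. Chance gives 1 in 20, here 5.85 groups, so the number is close to that which chance gives. In WT, library 2 was high for Timm10 (46.2), Timm29 (38.0) and Timm17b (153). In Eμ-Myc, library 1 was low for Pmpcb (90.7), Mtx2 (83.0) and Grpel1 (51.6), all as scaled coverage. WT library 2 was the highest of its group for 26 of the 37 genes tested, and Eμ-Myc library 1 the lowest of its group for 30. No value of the knockout group was picked out. The check looks for a lone library apart from the rest, so it cannot flag the split between knockout libraries described above.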

How the results depend on the processing

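Against WT, the count of 33 genes called in Eμ-Myc, where 55.2% of all genes were called in either direction, ran from 29 to 35 over the alternatives. It was 29 with all libraries in 1 fit, where 43% of all genes were called, and 35 with quality weights, where 69.3% were. When a library was left out it ran from 31 to 33, with 46.1% to 54.7% of all genes called. The members' median moved to 0.73 with total coverage scaling and from 0.83 to 0.97 without single libraries. That scaling turned Tomm34 to -0.080 (Eμ-Myc) and -0.053 (knockout group). A replicate block kept 33. For the knockout group against WT, 21 calls became 8 with the replicate block, whose numbers did not pair those libraries, and 36 with quality weights (median 1.25); leaving out a library gave 1 to 34, and Grpel2 turned to 0.030 without WT library 2 and 0.013 without knockout library 1 (range -0.14 to 0.030). For the knockout group against Eμ-Myc the block left 0 called, like the other settings except quality weights, with 33 called, a median of 0.39 and 37 members above 0 in place of 9, so that 28 turned sign, among them Timm13 (0.43), Tomm5 (0.50) and Mtx2 (0.37). Calls over all genes then numbered 7463 in place of 1, and against WT 10507 in place of 3708; with all libraries in 1 fit they were 5973, with the block 1869, and 600 to 6631 without single libraries. Without single libraries the changes ran from -0.35 to 0.091 for Timm13, -0.45 to 0.19 for Tomm5, -0.35 to 0.14 for Mtx2, -0.098 to 0.42 for Hspd1 and -0.075 to 0.38 for Hspa9. The first 3 turned sign without knockout library 1, Tomm5 also without library 2 (0.070), and the last 2 without library 3 or 4. The log2 ratio of Timm8a1 to Timm8b in the knockout group against Eμ-Myc turned to 0.011 with 0.5 added and ran from -0.12 to 0.15 without single libraries. Leaving out a library raises the smallest exact p of the ratio tests to 0.0571, and sign flips of 4 pairs cannot go below 0.125, so those settings cannot pass. The causes were not tested. Precision is limited by 4 libraries a group and by the unknown read depth.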
